A study of Homo sapiens and Mus musculus with 12 samples.

Results

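The genes described here are those that write, copy, read and remove DNA methylation in natural killer (NK) cells: the DNA methyltransferases DNMT1, DNMT3A and DNMT3B, the maintenance factor UHRF1 and the dioxygenase TET2. They were taken by symbol from the count tables of an RNA-seq study of EHMT2, which gave 5 of the 22021 genes listed in the mouse table and 5 of the 18304 genes listed in the human table, 10 of 40325 in all. All 10 passed the filter on low counts. The mouse libraries came from NK cells sorted from spleen, 3 from WT mice, which carry Ehmt2 flox/flox, and 3 from KO mice, which carry the same floxed alleles with Ncr1 iCre. The Cre recombinase is thus expressed from the gene of the NK receptor NKp46, and deletion is limited to cells that have expressed Ncr1. The mice were on a C57BL/6J background and matched by age and sex, and the study defined NK cells as CD3-NK1.1+. The human libraries came from NK92MI, an established NK cell line that makes its own interleukin-2, with 3 libraries treated with DMSO and 3 with BIX-01294 (BIX), an inhibitor of EHMT2. For NK92MI cells the study's supplementary text gives 0.25 µM BIX-01294 for 5 days, without saying that the RNA-seq cultures were the same. The genotype label of the KO samples reads Ezh2-KO, whereas their titles name EHMT2, and the titles were followed. The labels do not say whether the replicates of a group were separate animals or cultures, so the p-values below measure only the spread between these libraries, which may be technical.

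DNA methylation at CpG is copied after each round of replication by DNMT1, which is brought to hemimethylated CpG by UHRF1. UHRF1 also reads histone H3 methylated at lysine 9, the mark that EHMT2 (G9a) writes, and it binds the DNA ligase LIG1 once EHMT2 has methylated it. DNMT3A and DNMT3B write new methylation, and TET2 oxidises 5-methylcytosine as the first step of its removal. Transcripts of UHRF1 and DNMT1 are known to be more abundant in dividing cells.

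Promoter sequences are shown for the maintenance pair, because DNMT1 and UHRF1 were the human genes whose windows held an E2F word, the kind of sequence that cell cycle promoters share. RefSeq windows of GRCh38.p14 matched all 5 human genes, with 13 windows of 300 bases, from 250 bases before to 50 after each annotated start. The words searched were TTTCCCGC, TTTCGCGC, TTTGCCGC and TTTGGCGC on both strands, and 3.315% of the 35116 promoter windows in the RefSeq table held at least 1. The capitals below mark the matched word, and each run ends 20 bases after the start.

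DNMT1, chr19:10194934-10195203, minus strand: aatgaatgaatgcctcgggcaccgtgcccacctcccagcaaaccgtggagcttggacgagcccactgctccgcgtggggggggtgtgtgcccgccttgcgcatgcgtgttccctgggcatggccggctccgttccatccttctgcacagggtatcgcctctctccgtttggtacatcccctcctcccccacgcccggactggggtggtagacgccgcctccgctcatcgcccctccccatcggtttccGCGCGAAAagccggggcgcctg

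UHRF1, chr19:4909251-4909520, plus strand: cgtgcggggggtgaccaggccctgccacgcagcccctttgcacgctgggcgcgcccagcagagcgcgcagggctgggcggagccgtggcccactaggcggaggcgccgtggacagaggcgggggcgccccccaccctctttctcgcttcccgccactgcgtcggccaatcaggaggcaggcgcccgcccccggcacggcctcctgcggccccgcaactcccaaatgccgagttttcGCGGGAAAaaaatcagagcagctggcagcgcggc

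UHRF1, chr19:4909894-4910163, plus strand: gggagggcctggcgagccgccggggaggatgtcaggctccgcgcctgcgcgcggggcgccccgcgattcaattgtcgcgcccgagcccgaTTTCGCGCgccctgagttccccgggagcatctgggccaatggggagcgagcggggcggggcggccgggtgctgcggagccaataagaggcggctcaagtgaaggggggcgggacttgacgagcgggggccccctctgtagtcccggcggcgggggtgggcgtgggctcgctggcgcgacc

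The DNMT1 word began 2 bases before the annotated start and ran across it. GCGCGAAA and GCGGGAAA are TTTCGCGC and TTTCCCGC read on the other strand. In UHRF1 the words began 14 and 160 bases before their starts. The other UHRF1 window, and the 6 windows of DNMT3A, the 2 of TET2 and the 1 of DNMT3B, held none of these letters. A match is a description of the sequence and not a site of binding. The windows also differed in CpG content, the substrate of these enzymes. The median over all promoter windows was 14 CpG per 300 bases. DNMT1 had 30, the UHRF1 windows had 36, 40 and 46, and the DNMT3A windows had between 18 and 46. TET2 had 13 in its upstream window and 35 in its downstream window. DNMT3B had 3, and 18.2% of all windows had fewer. The windows of DNMT1, UHRF1 and DNMT3B lie within the annotated genes, downstream of the outermost annotated starts. The same holds for the downstream TET2 window. It also holds for the DNMT3A windows within chr2:25252082-25252565 and the one at chr2:25341876-25342175.

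Sequencing depth was 25891680 counts in WT replicate 2 and between 36384416 and 37438868 in the other mouse libraries, and between 16579469 and 17165446 counts in the human libraries. Levels are given as TMM-normalized counts scaled to library size (CPM). The targeted gene, Ehmt2, was at 275, 284 and 285 CPM in the 3 WT libraries and at 171, 143 and 137 CPM in the 3 KO libraries, so the groups did not overlap. These counts cover the whole gene and do not measure how complete the deletion was. By Western blot the study reported complete deletion of Ehmt2 and less H3K9me2 in splenic NK cells of KO mice. EHMT2 in NK92MI was at 57.7 ± 3.66 CPM (SD, n = 3) with DMSO and 38.5 ± 2.39 CPM (SD, n = 3) with BIX. EHMT2 shares 8.11% of its exon bases with the antisense gene EHMT2-AS1, and the strand setting of the counting is not given in the sources used here. The NK cell markers were present in every library. The 12 pan-NK genes summed to between 5539 and 9352 CPM in WT and between 10476 and 12300 CPM in KO, where 7 of the 12 rose at an adjusted p under 0.05 (edgeR's quasi-likelihood test with Benjamini-Hochberg adjustment). Of the markers of other splenic cells, 8 macrophage and monocyte genes summed to 2401 to 5921 CPM in WT and 1310 to 2329 CPM in KO, of which 5 fell. In the same libraries 7 listed B cell genes summed to 491 to 1371 CPM in WT and 91.1 to 453 CPM in KO, of which 0 passed the test, and 8 erythroid genes to 225 to 371 CPM in WT and 104 to 136 CPM in KO, of which 8 fell. The 7 neutrophil genes summed to 62.2 to 644 CPM in WT and 1.78 to 70.4 CPM in KO, of which 2 fell, and the 4 platelet genes to 1452 to 2304 CPM in WT and 1155 to 1266 CPM in KO, of which 0 passed. Of 6 listed T cell genes, which summed to 139 to 235 CPM in WT and 92.2 to 194 CPM in KO, 0 fell and 1 rose, Cd3g, at 21.3 to 26.4 CPM in WT and 30.7 to 40.8 CPM in KO. In these bulk samples fewer cells of a type and less RNA per cell cannot be told apart. In NK92MI the 4 listed B cell genes summed to 13.4 to 14.4 CPM with DMSO and 24.2 to 26.3 CPM with BIX, and both that could be tested rose: PAX5, at 12.1 to 13.6 CPM with DMSO and 22.1 to 24.3 CPM with BIX, and CD79A, at 0.468 to 1.28 CPM with DMSO and 1.47 to 2.07 CPM with BIX.

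The genes were chosen by symbol with their fold changes in both contrasts already known, so these differences are described here without a test. The groups did not overlap in CPM for 2 of the 5 mouse genes, Uhrf1 and Dnmt3a, as for 38.5% of mouse genes tested (19.1% higher and 19.3% lower in KO), and for 3 of the 5 human genes, DNMT1, DNMT3B and TET2, as for 47.9% of human genes tested. Of the 13189 mouse genes tested, 11.9% passed an adjusted p under 0.05 by edgeR's quasi-likelihood test, 4.44% higher and 7.43% lower in KO, and Uhrf1 was the 1 member of 5 among them. At the thresholds of the study, an adjusted p under 0.01 with an absolute log2 fold change over 0.5, edgeR called 0 of the 13189 genes, while 4719 had an unadjusted p under 0.05 and DESeq2 called 1500. The mouse calls at an adjusted p under 0.05 depended on which libraries were used: 1565 genes passed with all of them, 99 without WT replicate 1, 3530 without WT replicate 2, 14 without WT replicate 3, and 0 without KO replicate 2 or KO replicate 3. The smallest adjusted p in mouse was 0.0116. Of the 12727 human genes tested, 36.9% passed an adjusted p under 0.05, 18.4% in each direction, and DNMT1 and DNMT3B were the 2 members of 5 among them, both lower. At the study's thresholds 11.7% of human genes were called, 6.24% as higher and 5.43% as lower, and DNMT3B was the 1 member.

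**Figure D1:**
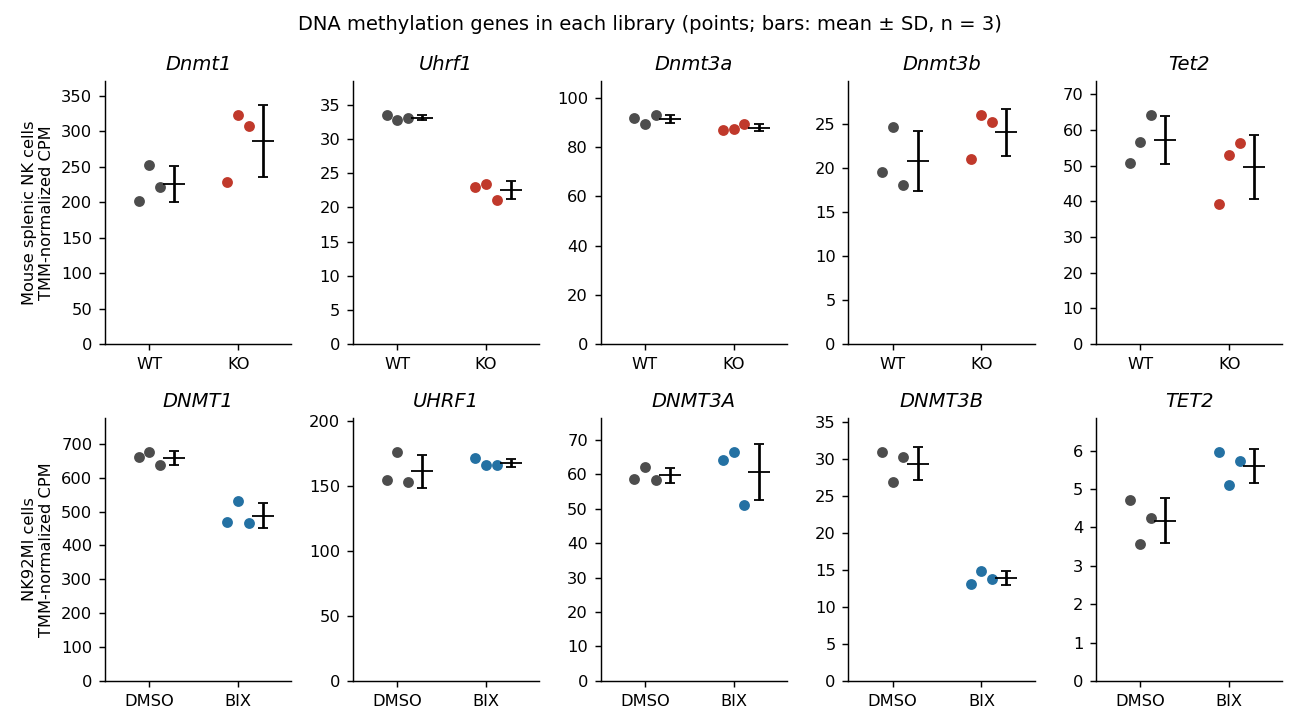
CPM (TMM-normalized) of the 5 genes in each library, mouse above and human below, with points for libraries and bars for the group mean ± SD (n = 3). KO libraries lie below every WT library for Uhrf1 (21.1 to 23.4 against 32.8 to 33.4 CPM), and BIX libraries below every DMSO library for DNMT3B (13.1 to 14.9 against 26.8 to 30.9 CPM) and DNMT1.

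Uhrf1, the factor that brings DNMT1 to hemimethylated DNA, lies at chr17:56303321-56323486 (GRCm38, plus strand). WT replicates 1, 2 and 3 gave 33.4, 32.8 and 33.04 CPM, and the KO replicates in the same order gave 23.0, 23.4 and 21.1 CPM. Every KO library was below every WT library, as for 19.3% of all mouse genes tested, and the WT values differed among themselves by less than 1 CPM. The mean was 33.1 ± 0.327 CPM (SD, n = 3) in WT and 22.5 ± 1.27 CPM (SD, n = 3) in KO, 1.47-fold lower. The counts behind these values ran from 768 to 1239. A ranking of all tested mouse genes by the absolute log2 fold change placed Uhrf1 at percentile 76.1.

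UHRF1 in NK92MI, at chr19:4903080-4962154 (GRCh38, plus strand), was at 155, 176 and 153 CPM in the control libraries CON-1, CON-2 and CON-3 and at 172, 166 and 167 CPM in BIX replicates 1 to 3. The groups overlapped, since CON-2 was the highest of the 6 libraries. On the log2 scale BIX minus DMSO was 0.06 ± 0.07 (SE) for UHRF1, and between 0.02 (without CON-3) and 0.13 (without CON-2) with a library left out. Its mean was 161 ± 12.9 CPM (SD, n = 3) with DMSO and 168 ± 2.95 CPM (SD, n = 3) with BIX.

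Dnmt1, the maintenance methyltransferase, lies at chr9:20907209-20959888 (GRCm38, minus strand). WT replicates 1, 2 and 3 gave 202, 253 and 222 CPM, and the KO replicates in the same order gave 229, 322 and 307 CPM. The groups overlapped through KO replicate 1, which was below WT replicate 2, while KO replicates 2 and 3 were above all WT libraries. Dnmt1 had a log2 fold change of 0.34 ± 0.15 (SE). It turned to −0.47 when libraries were scaled to the 12 pan-NK genes, of which 7 themselves rose in KO. Its coefficient of variation was 11.5% in WT and 17.5% in KO, against 0.989% and 5.64% for Uhrf1. Dnmt1 was highest among WT libraries in replicate 2 and lowest among KO libraries in replicate 1. The share of all counts that fell in the 12 pan-NK genes followed the same order at these 2 libraries: WT libraries had 0.553%, 0.931% and 0.579%, and KO libraries 1.06%, 1.22% and 1.21%, each in the order of the replicates. The part of cell composition in the Dnmt1 values was not tested.

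DNMT1 in NK92MI, at chr19:10133342-10231286 (GRCh38, minus strand), was at 661, 676 and 636 CPM in CON-1, CON-2 and CON-3 and at 469, 530 and 465 CPM in BIX replicates 1 to 3. All BIX libraries were below all DMSO libraries, as for 23.9% of the human genes tested. DNMT1 had a log2 fold change of −0.43 ± 0.07 (SE), a 1.35-fold lower level. The maintenance pair therefore had unlike values in both experiments. In mouse the CPM per kilobase of exon of Dnmt1 was 3.48 to 4.45 times that of Uhrf1 in WT libraries and 5.74 to 8.42 times in KO libraries. In NK92MI the ratio of DNMT1 to UHRF1 was 1.28 to 1.43 with DMSO and 0.915 to 1.07 with BIX. The size of the ratio depends on the length used. Per kilobase of the longest transcript, mean DNMT1 was 91.9 against 37.5 for UHRF1 with DMSO, and 68.2 against 39.0 with BIX. The ratio did not overlap between groups in either species, and it lay higher in KO than in WT and lower in BIX than in DMSO. It is built from the values of the pair given above and is not a separate result. Of single genes tested, 38.5% in mouse and 47.9% in human did not overlap between groups. The share among ratios of other gene pairs was not tested.

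Dnmt3a, which writes new methylation, lies at chr12:3806007-3914443 (GRCm38, plus strand). WT replicates 1, 2 and 3 gave 91.9, 89.5 and 92.8 CPM, and the KO replicates in the same order gave 86.7, 87.2 and 89.4 CPM. The KO libraries were all below the WT libraries, by as little as 0.126 CPM between the nearest pair, and the log2 fold change was −0.06 with a standard error of 0.07. DNMT3A in NK92MI, at chr2:25227855-25342590 (GRCh38, minus strand), was at 58.8, 62.2 and 58.3 CPM in CON-1, CON-2 and CON-3 and at 64.2, 66.5 and 51.2 CPM in BIX replicates 1 to 3. The BIX libraries held both the lowest and the highest of the 6 values. DNMT3A had a log2 fold change of 0.02 ± 0.09 (SE), and its sign turned without BIX replicate 1 (−0.01) or BIX replicate 2 (−0.05), and it was 0.13 without BIX replicate 3.

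Dnmt3b, the other enzyme for new methylation, lies at chr2:153649450-153687730 (GRCm38, plus strand). WT replicates 1, 2 and 3 gave 19.6, 24.7 and 18.1 CPM, and the KO replicates in the same order gave 20.99, 26.0 and 25.2 CPM. The groups overlapped, with WT replicate 2 above KO replicate 1, and these were the same libraries that were highest of WT and lowest of KO for Dnmt1. Dnmt3b had a log2 fold change of 0.21 ± 0.15 (SE), which was 0.12 without WT replicate 3, 0.35 without WT replicate 2 and −0.59 with scaling to the pan-NK genes. The mouse annotation also holds Dnmt3c, a close copy of Dnmt3b that has no row in the mouse table used here, so reads shared between the copies are uncertain. The same holds for the pseudogenes Dnmt3a-ps1 of mouse and DNMT3AP1 of human. Small antisense overlaps cover 0.799% of the exon bases of Dnmt3a and 0.255% of those of Tet2, and S1PR2 shares 0.54% of those of DNMT1.

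DNMT3B in NK92MI, at chr20:32762385-32809359 (GRCh38, plus strand), was at 30.9, 26.8 and 30.3 CPM in CON-1, CON-2 and CON-3 and at 13.1, 14.9 and 13.7 CPM in BIX replicates 1 to 3. Every BIX library was lower than every DMSO library, and the nearest pair was separated by 11.96 CPM. The mean was 29.3 ± 2.19 CPM (SD, n = 3) with DMSO and 13.9 ± 0.906 CPM (SD, n = 3) with BIX, 2.11-fold lower, with a log2 fold change of −1.08 and a standard error of 0.10. Among the 10 genes it was the largest difference, and 95.9% of human genes tested had a smaller absolute log2 fold change. Within a library the CPM per kilobase of DNMT3A was 0.949 to 1.16 times that of DNMT3B with DMSO and 1.87 to 2.45 times with BIX. In mouse the ratio of Dnmt3a to Dnmt3b was 1.11 to 1.57 in WT and 1.03 to 1.27 in KO, and the groups overlapped.

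Tet2, which oxidises 5-methylcytosine, lies at chr3:133463679-133545139 (GRCm38, minus strand). WT replicates 1, 2 and 3 gave 50.8, 56.6 and 64.0 CPM, and the KO replicates in the same order gave 39.4, 53.0 and 56.4 CPM. The groups overlapped, and KO replicate 1 was the lowest of the 6 libraries. Tet2 had a log2 fold change of −0.21 ± 0.15 (SE), and without KO replicate 1 it was −0.07. TET2 in NK92MI, at chr4:105145875-105279816 (GRCh38, plus strand), was at 4.71, 3.57 and 4.26 CPM in CON-1, CON-2 and CON-3 and at 5.97, 5.11 and 5.73 CPM in BIX replicates 1 to 3. The BIX libraries were all above the DMSO libraries, as for 24.1% of human genes tested, on counts of only 61 to 98. TET2 had a log2 fold change of 0.42 ± 0.18 (SE).

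**Figure D2:**
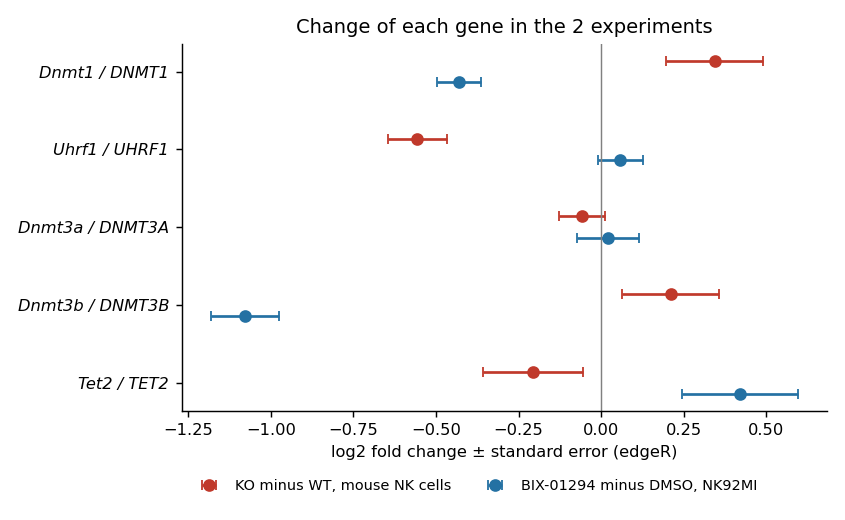
Log2 fold change of each gene with its standard error, KO minus WT for mouse and BIX minus DMSO for human, 3 libraries a group. DNMT3B (−1.08) lies furthest from 0. The values of Dnmt1 (0.34) and DNMT1 (−0.43) lie on opposite sides under this normalization. They do not with scaling to the pan-NK genes, which were themselves higher in KO (Dnmt1 −0.47).

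Set side by side, the species gave unlike values for the same gene. Dnmt1 was at a log2 fold change of 0.34 in KO and DNMT1 at −0.43 in BIX, Uhrf1 at −0.56 and UHRF1 at 0.06, Dnmt3b at 0.21 and DNMT3B at −1.08, and Tet2 at −0.21 and TET2 at 0.42. Dnmt3a at −0.06 and DNMT3A at 0.02 were both within 1 standard error of 0. The difference between the species was not tested, since the tables were normalized separately and the experiments differ in cell source, agent and time.

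Levels between genes were compared per kilobase of exon. In WT the order was Dnmt1 (30.6 CPM per kilobase), Uhrf1 (7.77), Dnmt3a (5.49), Dnmt3b (4.08) and Tet2 (3.39), and the ranges of the last pair overlapped. In KO, Dnmt1 was at 38.8 CPM per kilobase, Uhrf1 at 5.28 and Dnmt3a at 5.27, a pair whose ranges overlapped, followed by Dnmt3b at 4.71 and Tet2 at 2.94. With DMSO, DNMT1 (42.8 CPM per kilobase) stood above UHRF1 (31.4), DNMT3A (4.34) and DNMT3B (4.27) overlapped, and TET2 (0.254) was lowest. With BIX, UHRF1 (32.7 CPM per kilobase) and DNMT1 (31.7) overlapped, and DNMT3A (4.40), DNMT3B (2.02) and TET2 (0.340) followed without overlap. TET2 or Tet2 thus had the lowest mean of the 5 genes in each of the 4 groups. The DNMT1 level in DMSO was 169 times that of TET2, whereas Dnmt1 in WT was 9.02 times Tet2.

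The order depended on the length used. DNMT1 has 15379 exon bases over all annotated transcripts and 7157 in its longest transcript. Per kilobase of the longest transcript, DNMT1 led UHRF1 in BIX (68.2 against 39.0 CPM per kilobase), and DNMT3B passed DNMT3A in DMSO (6.72 against 6.29). In mouse the same length placed Dnmt3a (9.44 in WT) above Uhrf1 (9.22 in WT) and Tet2 (6.23 in WT) above Dnmt3b (4.82 in WT). The lowest gene in mouse was then Dnmt3b in WT and Tet2 in KO (5.40 against 5.57 for Dnmt3b).

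**Figure D3:**
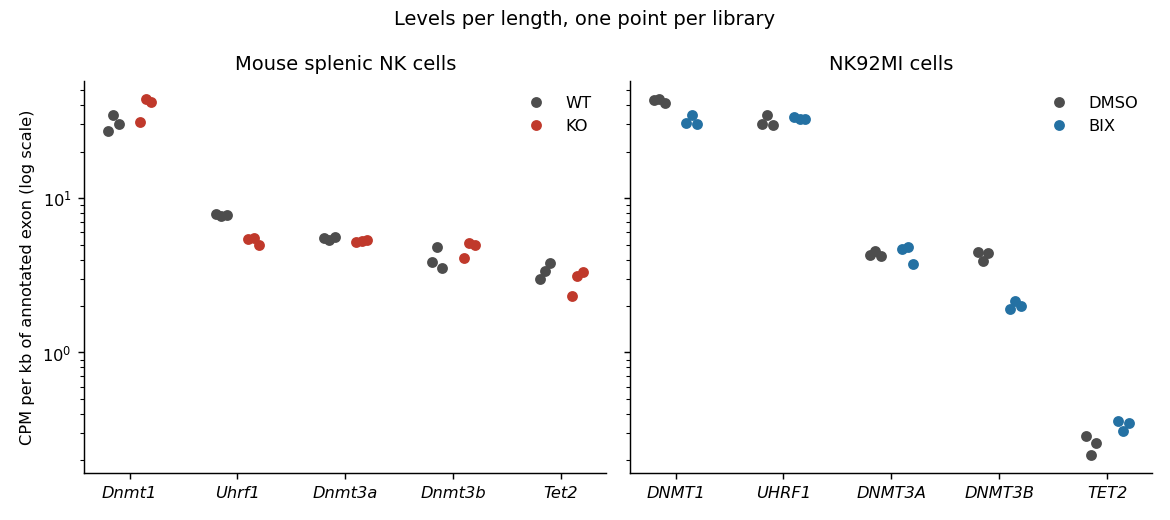
Level of each gene in CPM per kilobase of exon on a log axis, by group, with points for the 3 libraries. Dnmt1 is highest in WT and KO, DNMT1 and UHRF1 stand together at the top in NK92MI, and TET2 is the lowest human gene at 0.254 with DMSO and 0.340 with BIX.

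Next come 36 other genes of DNA methylation, first in mouse NK cells. Of the 33 tested, 0 rose and 3 fell at an adjusted p under 0.05, against 4.44% higher and 7.43% lower of all mouse genes, and the median log2 fold change was 0.10, against 0.01 over all genes. Cdca7, which recruits the remodeller Hells for maintenance methylation, fell from 15.7 ± 3.51 to 8.58 ± 1.17 CPM (SD, n = 3), a log2 difference of −0.87 ± 0.19 (SE) at an adjusted p of 0.0383 by edgeR. Ahcy, which clears the methylation by-product S-adenosylhomocysteine, fell from 42.0 ± 3.53 to 32.0 ± 0.290 CPM (SD, n = 3), a log2 difference of −0.39 ± 0.09 (SE) at an adjusted p of 0.0419 by edgeR. Apex1, the endonuclease of base excision repair, fell from 33.8 ± 8.37 to 16.8 ± 4.20 CPM (SD, n = 3), a log2 difference of −1.01 ± 0.23 (SE) at an adjusted p of 0.0411 by edgeR. No gene of the 6 tested cofactors and protectors of Dnmt3 passed the test, and 0 of the 7 methyl-CpG readers did, although the 7 readers had positive values between 0.04 and 0.34. Dnmt3l, Dppa3 and Cxxc4 were listed with too few counts to be tested. The count of 3 was 0 without WT replicate 1, WT replicate 3, KO replicate 2 or KO replicate 3, and 13 without WT replicate 2.

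In NK92MI 32 of the 36 genes were tested, of which 8 rose and 7 fell at an adjusted p under 0.05, against 18.4% of all human genes in each direction, at a median of −0.00 on the log2 scale, against −0.01 over all genes. The 10 partners of maintenance methylation gave 1 that rose and 4 that fell. Those that fell were MAT2A, which makes the methyl donor S-adenosylmethionine (617 ± 6.76 to 408 ± 18.8 CPM, SD, n = 3, log2 fold change −0.60, adjusted p = 5.71e-06 by edgeR), AHCY (−0.55, adjusted p = 0.000233 by edgeR), CDCA7 (−0.30, adjusted p = 0.0013 by edgeR) and the ligase LIG1 (−0.24, adjusted p = 0.00748 by edgeR). ZBTB24, an activator of CDCA7, rose by 0.39 on the log2 scale (adjusted p = 0.00172 by edgeR). AHCY and CDCA7 were thus lower past the test in both species. The share of all genes lower in both was not tested. The mouse calls were near the threshold (adjusted p = 0.0419 for Ahcy and 0.0383 for Cdca7 by edgeR). In mouse 0 pathway genes passed without WT replicate 1, WT replicate 3, KO replicate 2 or KO replicate 3.

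In NK92MI the cofactor and base excision groups held genes that rose and genes that fell, and the methyl-CpG readers gave 2 that rose and 0 that fell. Of the DNMT3 cofactors and protectors, QSER1, which guards unmethylated regions, rose (0.38, adjusted p = 0.00164 by edgeR). The histone demethylases KDM2A (0.28, adjusted p = 0.00422 by edgeR) and KDM2B (0.26, adjusted p = 0.00903 by edgeR), which bind CpG islands, also rose. The CXXC-domain gene CXXC5 fell (−0.55, adjusted p = 0.0309 by edgeR). Among TET and base excision genes, GADD45A (0.71, adjusted p = 0.00877 by edgeR) and GADD45B rose. GADD45B, a stress-induced gene, was at 61.5 ± 10.7 CPM with DMSO and 119 ± 14.8 CPM with BIX (SD, n = 3), with a log2 fold change of 0.95 (adjusted p = 2.64e-05 by edgeR). The glycosylases UNG (−0.52, adjusted p = 0.000102 by edgeR) and MBD4 (−0.20, adjusted p = 0.0324 by edgeR) fell. Of the methyl-CpG readers, ZBTB33 rose (0.32, adjusted p = 0.00356 by edgeR). DNMT3L, DPPA3 and TET1 have no row in the human table used here.

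UHRF1 and DNMT1 are genes of dividing cells, so cell cycle lists are given beside them. Of 27 S phase genes in mouse, 0 rose and 4 fell, against 4.44% higher and 7.43% lower of all mouse genes, at a median of −0.25 on the log2 scale, and their summed level was 1149 to 1229 CPM in WT and 1118 to 1174 CPM in KO. The smallest adjusted p values were those of E2f8 (−0.80, adjusted p = 0.0239 by edgeR), a repressor of the cell cycle, and Rrm2 (−0.63, adjusted p = 0.0279 by edgeR), a subunit of ribonucleotide reductase. Of 12 G2/M genes 0 rose and 9 fell, against the same shares of all mouse genes, with a median of −0.75, and their sum was 451 to 499 CPM in WT and 254 to 362 CPM in KO. Aurkb, a mitotic kinase (−0.76, adjusted p = 0.0279 by edgeR), and Ccnb2, a mitotic cyclin (−0.78, adjusted p = 0.0279 by edgeR), had the smallest adjusted p values. Of the S phase genes 0 passed without WT replicate 3, KO replicate 2 or KO replicate 3, 1 without WT replicate 1 and 7 without WT replicate 2, and of the G2/M genes 0 passed without WT replicate 1, WT replicate 3, KO replicate 2 or KO replicate 3. Uhrf1 was lower in KO beside these genes and Dnmt1 was not. In the same KO libraries 8 of 8 erythroid and 5 of 8 macrophage and monocyte genes fell. The part of cell division and of other cell types in the Uhrf1 and G2/M values was not tested.

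In NK92MI 5 of the 27 S phase genes rose and 3 fell, against 18.4% of all human genes in each direction, with a median of −0.02 and a sum of 6452 to 6720 CPM with DMSO and 6699 to 7231 CPM with BIX. RRM2 rose by 0.69 on the log2 scale (adjusted p = 8.20e-07 by edgeR) and CDC6, which loads the replicative helicase, by 0.39 (adjusted p = 0.000249 by edgeR). Of the 12 G2/M genes, 1 rose and 8 fell, against the same 18.4%, with a median of −0.32, and their sum was 5666 to 5805 CPM with DMSO and 4584 to 5183 CPM with BIX. CDC20, an activator of the anaphase-promoting complex, fell by 0.87 (adjusted p = 8.76e-07 by edgeR) and PLK1, a mitotic kinase, by 0.47 on the log2 scale (adjusted p = 9.86e-05 by edgeR). Without CON-2, 5 S phase genes passed in place of 8. UHRF1 overlapped between the groups in these libraries while DNMT1 was lower.

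**Figure D4:**
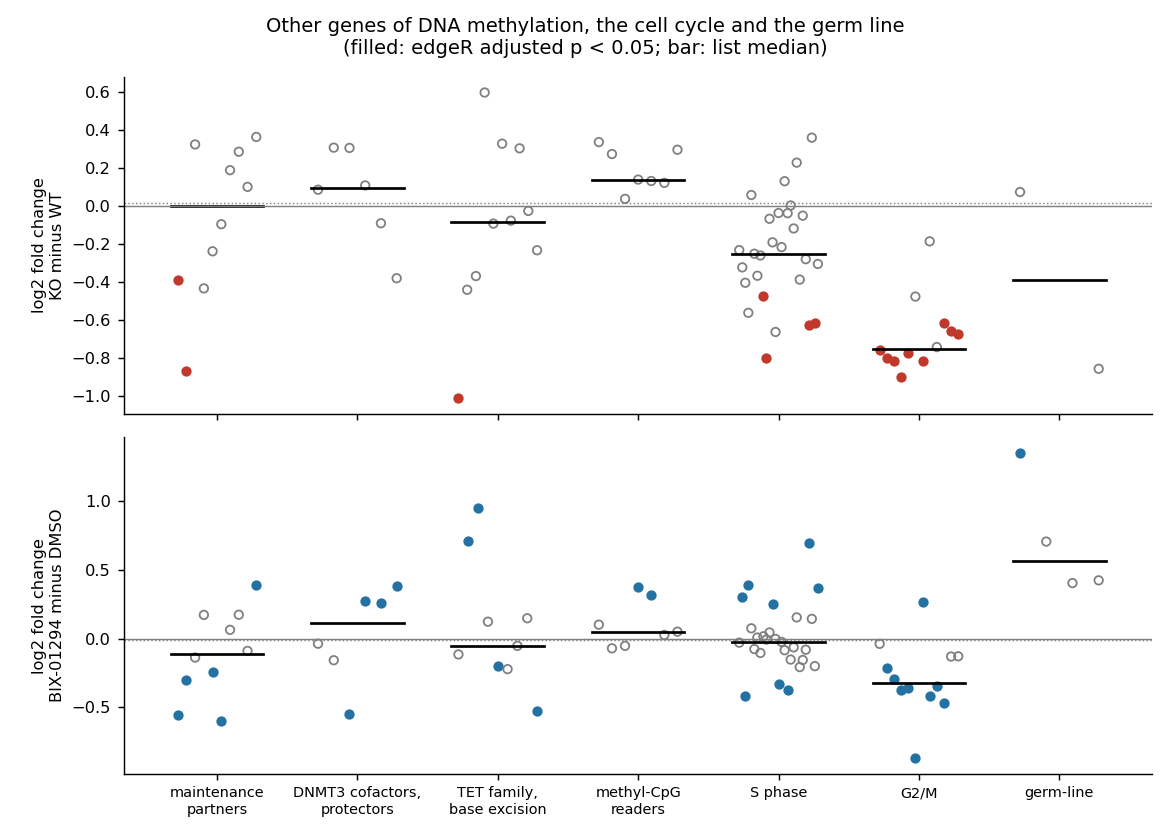
Log2 fold change of every tested gene of the pathway, S phase, G2/M and germ-line lists, KO minus WT above and BIX minus DMSO below, with filled points for genes past an adjusted p of 0.05 and a bar at each list median. The 12 mouse G2/M genes all lie below 0 with 9 filled, and the human pathway genes, in 4 groups, lie on both sides with 8 filled above 0 and 7 below.

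Germ-line genes are a class that DNA methylation keeps silent in somatic cells. Of 15 such genes in the mouse libraries only 2 were tested, and 0 passed an adjusted p of 0.05. Of all mouse genes 4.44% were higher and 7.43% lower at that threshold. Brdt and Piwil2 had the smallest adjusted p values, of which the lower was 0.369 by edgeR. In NK92MI 4 of 6 listed genes were tested. DDX4, a germ cell RNA helicase, rose from 4.65 ± 0.841 to 11.9 ± 1.10 CPM (SD, n = 3), a log2 difference of 1.35 ± 0.16 (SE) at an adjusted p of 2.30e-05 by edgeR, and SYCP3, a protein of the synaptonemal complex, had a value of 0.71 with an adjusted p of 0.128 by edgeR. Of the 4 tested genes 1 rose past the test, against 18.4% of all human genes. Their median was 0.57, against −0.01 over all genes, and 2 passed without CON-2 or without BIX replicate 3. SYCP3, TEX11 and TAF7L rested on only 6 to 38 counts in a library. The part of DNA methylation in these values was not tested.

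The genes whose log2 CPM followed each member most closely over the 6 libraries of a table are given as a description, since 6 libraries in 2 groups share their group difference. Over 11983 mouse genes Uhrf1 was nearest to Arhgap11a (Pearson r = 0.998), Rfx5 (0.994) and Ybx1 (0.993), Dnmt1 to Map4 (0.999), Rcor1 (0.998) and Phrf1 (0.996), and Tet2 to Eml4 (0.986), Lpin2 (0.983) and Akap13 (0.979). Over 11685 human genes UHRF1 was nearest to SCRN2 (Pearson r = 0.983), CMTM7 (0.975) and RBM43 (0.975), DNMT1 to PLCG1 (0.999), ICE1 (0.998) and MICAL2 (0.998), and TET2 to MAP3K8 (0.994), RASEF (0.992) and CD79A (0.990).

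**Figure D5:**
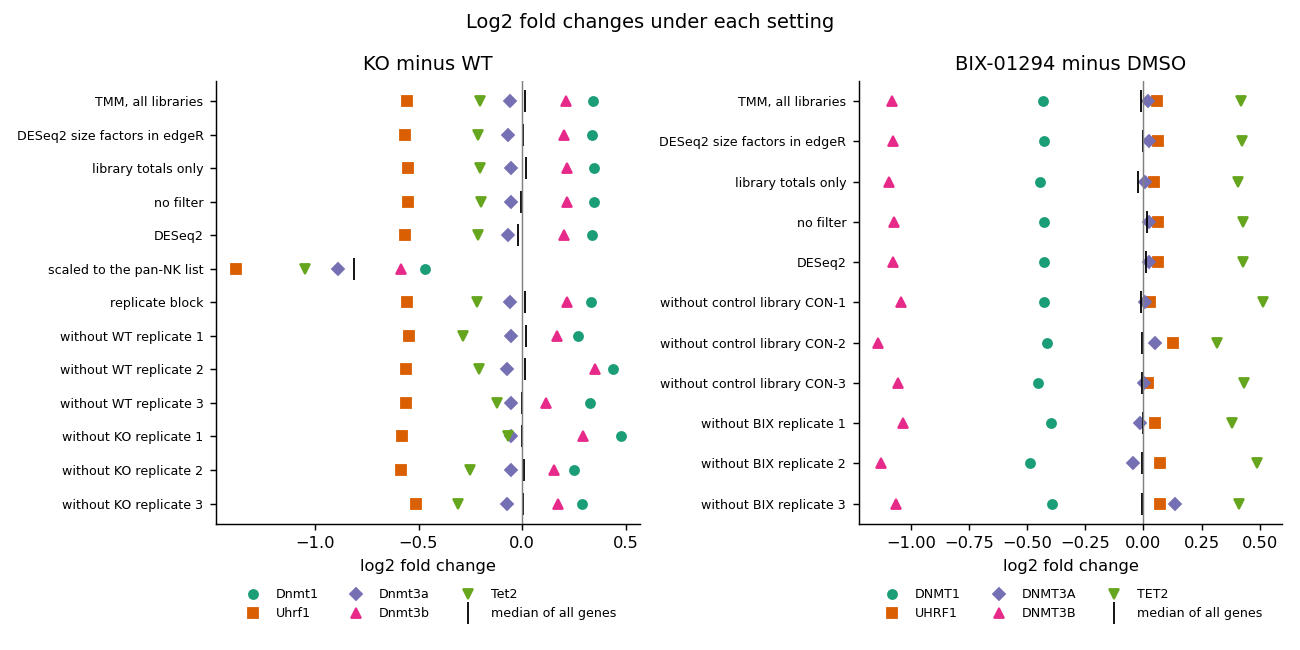
Log2 fold change of the 5 genes under each way of processing the counts, KO minus WT and BIX minus DMSO. The values shift most where mouse libraries are scaled to the pan-NK genes, which puts Uhrf1 at −1.38 and Dnmt1 at −0.47. With a library left out, Tet2 ran from −0.31 to −0.07 and DNMT3A from −0.05 to 0.13.

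The mouse values hold relative to the median gene, and scaling to the pan-NK list moved that median from 0.01 to −0.81. Of these 12 pan-NK genes 0 were lower in KO under the main normalization and 7 rose at an adjusted p under 0.05 by edgeR. Dividing by them therefore moves other genes down in KO, and a turn of sign under it is not separate evidence on a gene. Dnmt1 was then at −0.47, so that its direction turned, and Dnmt3b at −0.59, whereas relative to the median gene they were at 0.34 and 0.23. Uhrf1 was at −1.38, and at −0.57 relative to the median gene. Leaving out each library in turn put Uhrf1 between −0.58 and −0.51, DNMT1 between −0.49 and −0.39 and DNMT3B between −1.14 and −1.03. The members were chosen with their fold changes known, so which of them passed is a description and not a test. Uhrf1 no longer passed an adjusted p under 0.05 by edgeR without WT replicate 1, WT replicate 3, KO replicate 2 or KO replicate 3. DNMT1 and DNMT3B passed with each human library left out. Dnmt1 passed without KO replicate 1 and with the replicate number as a block.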

How the data were processed

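RNA-seq counts were analysed for sorted mouse splenic NK cells (3 WT, 3 KO) and NK92MI cells (3 DMSO, 3 BIX). Per the labels and the study's methods, the authors trimmed reads with fastp 0.23.4, aligned them with STAR 2.7.11b, allowing 2 mismatches, to GRCm38 or GRCh38 and counted them per gene with HTSeq 2.0.3. The deposited values are unnormalized whole-number counts, 1 row per symbol. The annotation release and the strand setting are not given in the sources used here. The human control columns carry no replicate number of the DMSO samples and were used as a group.

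Each table was fitted with edgeR 4.0.16 (R 4.3.3) by the quasi-likelihood test after TMM and filterByExpr, with Benjamini-Hochberg adjustment over all genes tested, and DESeq2 1.42.0 was an alternative. Counting error was not separated from the spread between libraries. It weighs most at low counts, as for TET2 (61 to 98) and for DNMT3B with BIX (215 to 253). Positions and exon lengths came from GENCODE M21 and 44, which are not shown to be the authors' releases. No pair of replicates agreed within sampling noise. The fitting steps were tested on simulated data.

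The members and lists were chosen with earlier results of these data known. Genes were named by a rule: all members, pathway genes past an adjusted p of 0.05, the 2 genes with the smallest adjusted p of each other list, and the 3 genes most like Uhrf1, Dnmt1, Tet2 and their human forms. A gene that the rule names is not reported here. Log2 CPM used a prior count of 2.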

Additional observations from a re-analysis of the deposited data

How the results depend on the processing

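At an adjusted p under 0.01 and an absolute log2 fold change over 0.5, the mouse count of 0 became 34 without the filter, 1500 with DESeq2, 3402 with scaling to the pan-NK list, 819 with the replicate block, and 0 to 1163 with each library left out in turn (1163 without WT replicate 2). At an adjusted p under 0.05 the 1565 mouse genes became 3094 with DESeq2, 8680 with scaling to the pan-NK list (34 higher, 8646 lower, against 585 and 980), 3222 with the replicate block and 0 to 3530 with a library left out: 99 without WT replicate 1, 3530 without WT replicate 2, 14 without WT replicate 3 and 0 without KO replicate 2 or KO replicate 3. The 3 pathway genes became 7 with DESeq2, 22 with pan-NK scaling, 12 with the block and 0 to 13 with a library left out. The 4 S phase genes became 8, 25 with pan-NK scaling, and 0 to 7, and the 9 G2/M genes became 0 to 10, with 0 without WT replicate 1, WT replicate 3, KO replicate 2 or KO replicate 3. The 0 germ-line genes became 1 with pan-NK scaling. Pan-NK scaling put Dnmt1 at −0.47, Uhrf1 at −1.38, Dnmt3a at −0.89, Dnmt3b at −0.59 and Tet2 at −1.05. In NK92MI the 8 S phase genes became 5 to 10 with a library left out (5 without CON-2, 10 without BIX replicate 2 or BIX replicate 3) and the 1 germ-line gene 1 to 2 (2 without CON-2 or BIX replicate 3). Pan-NK scaling divides by genes that were themselves higher in KO. The cause of the other shifts was not tested.

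Deviations from the group means were correlated between KO and WT mouse libraries. For libraries with the same replicate number the correlations were 0.28, 0.35 and −0.19 for replicates 1 to 3. KO replicate 1 had 0.281 with WT replicate 1 and 0.284 with WT replicate 3. KO replicate 2 correlated best with WT replicate 2, and so did KO replicate 3 (0.199). Whether mouse libraries with the same number were prepared as pairs was not tested. With the replicate block Dnmt1 was at 0.33 and Uhrf1 at −0.56. For NK92MI no paired analysis was possible because the control columns, CON-1 to CON-3, are not tied to the numbered DMSO samples. The other alternatives, DESeq2's size factors and library totals, left the mouse and human counts within 1.5 times of those reported.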
